A study of Rattus norvegicus with 2 samples.

Results

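The genes described here were higher in the failing left ventricle of Dahl salt-sensitive (DS) rats and stayed above a limit relative to failure when the rats had received chaetocin. They were chosen by measured values of 2 two-color arrays. A gene was taken if its HS (−)/NS (−) ratio was over 2, its HS (ch+)/HS (−) ratio was at least the inverse of 1.4, taken to the third decimal and written as 0.71 below, and its HS (−) signal was at least 100 on both arrays. Of the 20174 genes on the chip, 4127 had this signal and both ratios. Among these 4127 tested genes, 172 were raised in HS (−), and 59 of the 172 met the limit for chaetocin. The rule leaves out 12 IDs, of which 3 were among the 59, so that 56 genes remained. Both ratios were used to choose the genes. They are therefore given as a description, and no test was made on them.

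NS (−) was the control group of male DS rats on a diet with 0.3% NaCl, HS (−) was the heart failure group on 8% NaCl, and HS (ch+) was on 8% NaCl with 0.25 mg/kg of chaetocin, injected 2 times per week between the ages of 6 and 13 weeks. RNA of 3 rats per group was mixed into 1 pool of left ventricular RNA at the stage of heart failure. HS (−) RNA carried the red dye Cy5 on both arrays, next to NS (−) RNA in the green dye Cy3 on array 1 and HS (ch+) RNA in Cy3 on array 2. Chaetocin had been dissolved in DMSO. No group had a second pool and no dyes were swapped, so that no value below has a biological replicate. The effects of diet and chaetocin cannot be told apart from those of the rats that were pooled or, in the ratios within one array, from those of the dyes.

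Pressure overload by a high-salt diet makes the ventricular wall thicken. Heart muscle cells then return to a gene program of the fetal heart, with natriuretic peptides and slow myosin, and fibroblasts deposit collagen and other matrix. Chaetocin is a fungal compound that inhibits methyltransferases of histone H3 lysine 9, a mark of silent chromatin. In the files, genes carry Ensembl IDs and no symbols. Names are paired with 50 IDs in the study, and 0 of the 56 genes are among them. In the RefSeq gene table used here, 0 of the IDs on the chip were listed. The 56 genes thus have no name or known function here, and they are described by rank and by their values, with an ID for 3 of them. Gene lists and markers of cell types could not be applied to them for the same reason. The one gene of heart muscle that served as a check of the tissue was Myh6, the fast α-myosin heavy chain. Its spot was saturated in NS (−) and had signals of 11788 and 15969 in the HS (−) readings and 32990 in HS (ch+), all far above the blank spots. In RNA of whole tissue, more cells of a type and more RNA per cell cannot be told apart.

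In the failing ventricle, the 56 genes stood at a median of 2.45 times the NS (−) level, with a range from 2.02 to 46.6. Most of them were raised moderately. In 29 genes the ratio was at most 2.5, in 17 it was between 2.5 and 4, and in 10 it was over 4. A ratio over 2 was found in 4.17% of the tested genes, and this ratio was part of the rule, so nothing follows from this share about the 56. The tested genes together had a median of 0.978.

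With chaetocin, these genes mostly had ratios under 1, although the rule admits no gene under 0.71. The HS (ch+)/HS (−) ratio of the 56 genes had a median of 0.829, with a range from 0.7144 to 3.02, and 49 of the 56 genes had a ratio under 1. Of the tested genes, 95.4% had a ratio of 0.71 or more, and the median of these was 1.03. Among them, 43.55% lay between 0.71 and 1, against 87.5% of the 56. A ratio over 1 was found in 7 of the 56 genes and in 53.9% of the tested genes. A ratio over 1.4 was reached by 1 of the 56 and by 5.86% of the tested genes. Both ratios of a gene contain the same HS (−) RNA, so that any deviation of this pool that raises the first ratio lowers the second. As the rule used this ratio and a high HS (−) reading, nothing follows from the count of 49. With the background of each spot subtracted, 27 of the 56 had a ratio over 1 and the median was 0.994.

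**Figure D1:**
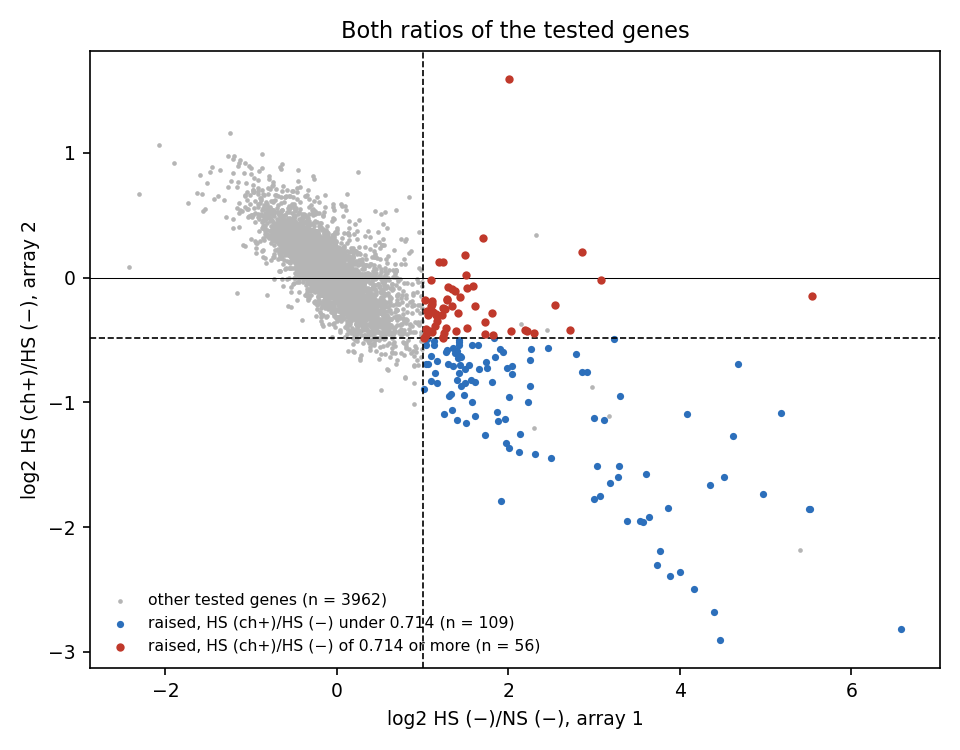
Each point is 1 of the 4127 tested genes, with the log2 HS (−)/NS (−) ratio of array 1 on the horizontal axis and the log2 HS (ch+)/HS (−) ratio of array 2 on the vertical axis; dashed lines mark the limits of 2 and 0.71, and the 7 raised genes whose IDs the rule leaves out are drawn in gray. The 56 genes (red) lie to the right of the vertical line and above the horizontal one. There is no gap between them and the 109 genes (blue) that fell under 0.71.

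Relative to NS (−), the genes were still high with chaetocin. The HS (ch+)/NS (−) ratio is the product of both ratios. It compares 2 pools in the same dye but on different arrays, and the errors of both ratios enter it. Its median was 2.17 and its range was from 1.44 to 42.0. The limits of the rule allow no value under 1.43. Of the 56 genes, 33 were over 2 and 23 were not, whereas 2.59% of the tested genes were over 2. As the product inherits the selection for a high first ratio, this excess is fixed in part by the choice of genes. On the log2 scale, the genes kept a median of 80.7% of their rise, from 52.1% for the lowest to 179% for the highest. This share is computed from both ratios of the rule, whose limits admit none under 51.4%, and is a description.

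**Figure D2:**
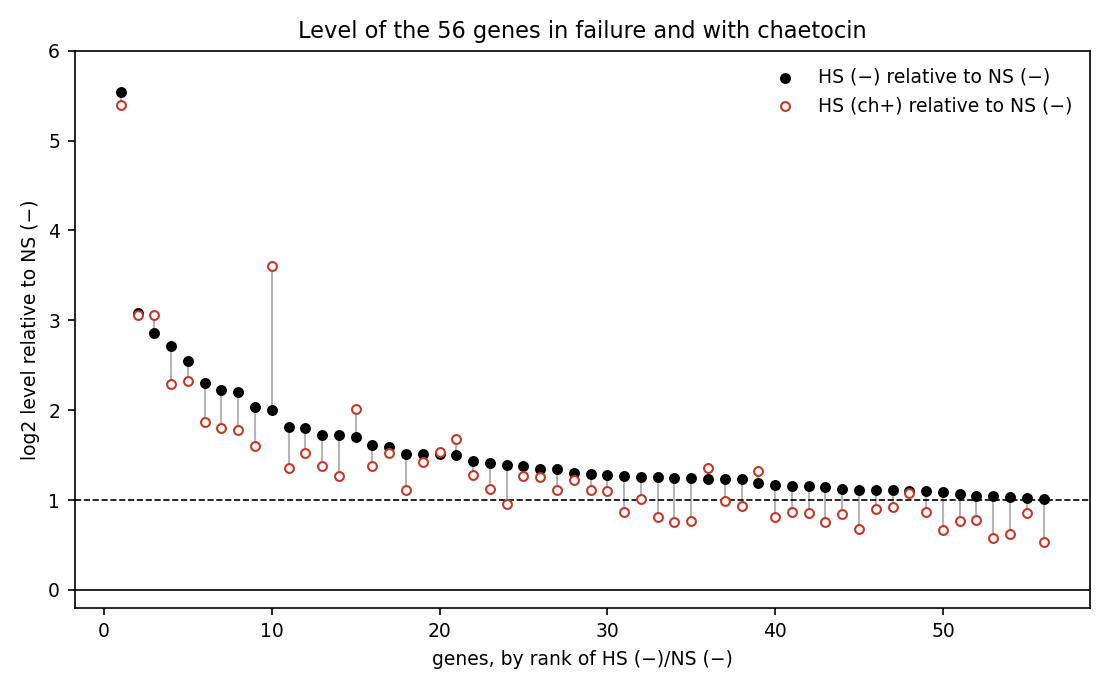
For each of the 56 genes, in order of the HS (−)/NS (−) ratio, the filled point gives the log2 level in HS (−) and the open point that in HS (ch+), both relative to NS (−) at 0; the dashed line marks a 2-fold level. Open points lie above the filled ones in 7 genes and below them in 49, and 33 open points lie above the dashed line.

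For comparison, 109 genes were raised under the same limits, apart from the left-out IDs, and had an HS (ch+)/HS (−) ratio under 0.71. They stood at a median of 3.73 times NS (−) in HS (−) and fell to a median of 0.548 of this level with chaetocin. They kept a median of 51.4% of the rise, a difference from the 56 genes that the limit itself sets in large part. Their median level relative to NS (−) with chaetocin, 1.95, was close to the 2.17 of the 56 genes, and 49.5% of them were over 2, against 58.9% of the 56. The HS (−) signals on array 1 had a median of 311 in the 56 genes, 384 in the 109 genes and 287 in all tested genes. The NS (−) signals had medians of 113, 105 and 326. Both sets of raised genes thus had dimmer NS (−) spots than the tested genes as a whole, which the rule favors. These differences were not tested, as genes are not replicates.

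The limit of 0.71 cut through a continuous range of values. The 3 genes just inside it had HS (ch+)/HS (−) ratios of 0.7144, 0.7154 and 0.7190, and the 3 raised genes just outside it had 0.7137, 0.7127 and 0.7113. At the other limit, the 3 genes just inside had HS (−)/NS (−) ratios of 2.02, 2.04 and 2.05, and those just outside had 1.998, 1.995 and 1.990.

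HS (−) RNA was in Cy5 on both arrays, which gives a repeat reading of each gene from the same pool. After scaling to the same median, the log2 HS (−) signals of the arrays differed with an SD of 0.16 over the 4127 genes, or 1.12-fold. This SD was 0.17 over the 1466 genes whose lower HS (−) signal was under 200 and 0.15 over the 770 genes above 1000. The 56 genes behaved like the rest in this respect. Their SD was 0.17, their difference ranged from -0.23 to 0.56, and the reading of array 1 was the higher one in 29 of 56. Of the 56 genes, 22 had a lower HS (−) signal under 200 and 11 were over 1000, and none had a saturated spot. Ratios within one array varied less in bright control spots. Over 24 repeated spots for each of 2 control genes, the log2 ratio had an SD of 0.06 on either array. The mean Cy5 signals of these genes were between 2685 and 4397, whereas the 56 genes had a median HS (−) signal of 311 on array 1. This SD may thus not hold for dimmer genes. None of these SDs contains the differences between rats.

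By the SD of 1.12-fold, 40 of the 56 genes were lower with chaetocin than in HS (−) by more than 1 SD, 12 lay within 1 SD of no difference, and 4 were higher by more than 1 SD. Of the tested genes, 24.1% were lower, 44.8% within 1 SD and 31.1% higher by this measure. The rule used this ratio, so nothing is read from these counts. The SD is also that of 1 channel between arrays and does not measure the error of a ratio within one array. As for the limits, 16 genes were within 1 SD of the limit of 2 and 21 within 1 SD of the limit of 0.71. Together, 31 genes were within 1 SD of at least 1 limit, and 25 were farther from both. On the other side, 26 raised genes lay within 1 SD below 0.71. When the HS (−) reading of the other array was used in each ratio, 49 of the 56 genes met both ratio limits, 53 that for HS (−)/NS (−) and 50 that for HS (ch+)/HS (−). These exchanged ratios rest on spots of 2 arrays and so hold the differences between the spots as well.

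**Figure D3:**
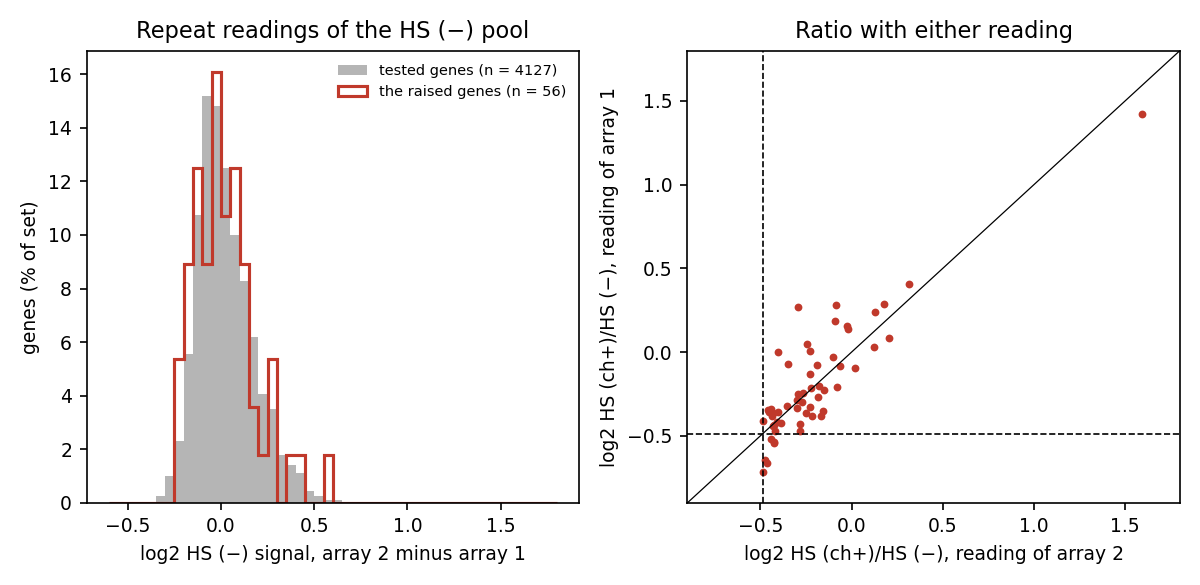
The left panel shows the log2 HS (−) signal of array 2 minus that of array 1, centered on the median, as the percentage of the 4127 tested genes (gray) and of the 56 genes (red outline) in each bin; the right panel plots the log2 HS (ch+)/HS (−) ratio of the 56 genes with the HS (−) reading of array 2 on the horizontal axis and with the reading of array 1 on the vertical axis, with the identity line and the limit of 0.71 (dashed). The distributions have similar widths, with SDs of 0.16 and 0.17, and 6 of the 56 genes fall below the dashed horizontal line.

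The largest rise was that of ENSRNOG00000006151. After blank subtraction its signal was 116 in NS (−), 4818 in HS (−) on array 1, 5060 in HS (−) on array 2 and 5917 in HS (ch+). The NS (−) spot was far below the other 3. The signal ratios become 46.6 for HS (−)/NS (−) and 0.901 for HS (ch+)/HS (−) after centering, which multiplies the first ratio by 1.12 and the second by 0.770. The HS (ch+) level was 42.0 times that of NS (−), the highest such ratio of the 4127 tested genes, and its rise in HS (−) was the second highest. Across the other ways of processing, its HS (−)/NS (−) ratio stayed between 30.4 and 50.003 and its HS (ch+)/NS (−) ratio between 27.4 and 44.0. Its HS (ch+)/HS (−) ratio lay between 0.720 without background subtraction and 1.06 with 50 added to each signal.

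The largest increase with chaetocin was that of ENSRNOG00000006579, the only one of the 56 with a ratio over 1.4. Its signal was 29.8 in NS (−), 107 in HS (−) on array 1, 105 in HS (−) on array 2 and 410 in HS (ch+). The groups were thus ordered with HS (ch+) at the top and NS (−) at the bottom. The HS (−) signals were similar before scaling. After scaling to the same median, the log2 signal of array 2 minus that of array 1 was -0.17, beyond the technical SD of 0.16. The HS (−)/NS (−) ratio was 4.02, the HS (ch+)/HS (−) ratio was 3.02, and HS (ch+) stood at 12.1 times NS (−). Its HS (ch+)/HS (−) ratio was the highest of all 4127 tested genes in the main values. Its HS (−) spots were close to the signal minimum of 100, and its ratios moved with the background correction. The HS (ch+)/HS (−) ratio was 2.17, still the highest, without background subtraction. It was 1.82 with the background of each spot subtracted and 1.30 with normexp and loess, where 420 and 639 tested genes had a higher ratio. With the HS (−) readings exchanged it was 2.68, with 6 tested genes above it, and the HS (−)/NS (−) ratio was 3.57. The HS (−)/NS (−) ratio was 2.54 without background subtraction, 2.04 with 50 added to each signal and 1.59, under the limit, with normexp and loess. The HS (ch+)/NS (−) ratio became 5.51 in the first and the second of these settings and 2.08 in the third.

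In the gene with the second highest HS (−)/NS (−) ratio, the signal was 23.9 in NS (−), 179 and 224 in the HS (−) readings, and 286 in HS (ch+). Its ratios were 8.43 and 0.984, so that HS (ch+) and HS (−) differed by less than the technical SD. The first ratio was between 3.02 with normexp and loess and 16.1 with the background of each spot subtracted, and the second was below 1 by more than the SD, at 0.829 and 0.840, without background subtraction and with normexp and loess. This was the dimmest NS (−) spot of the 56, but it exceeded the mean of the blank spots by 11.996 times their SD. The third gene in this order had signals of 25.7 in NS (−), 166 and 168 in HS (−), and 252 in HS (ch+), with ratios of 7.23 and 1.15. Its HS (ch+)/HS (−) ratio was 0.960 without background subtraction, 1.70 with normexp and loess and 2.83 with the background of each spot subtracted. Its HS (−)/NS (−) ratio was 3.88, 1.75 and 3.29 in these settings and 2.95 with 50 added, so that it missed the limit of 2 in one of them.

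The fourth had signals of 42.4 in NS (−), 249 and 254 in HS (−), and 245 in HS (ch+), with ratios of 6.59 and 0.746. The fifth had 91.7 in NS (−), 477 and 529 in HS (−), and 589 in HS (ch+), with ratios of 5.84 and 0.857. The HS (−)/NS (−) ratios of the fourth and the fifth were 2.53 and 2.23 with normexp and loess, and that of the fifth was 2.85 with the background of each spot subtracted. With 50 added they were 3.35 and 3.86, and the fourth had 4.54 without background subtraction. The HS (ch+)/HS (−) ratio of the fourth fell under 0.71 without background subtraction (0.652) and with the other HS (−) reading (0.688). That of the fifth was 0.708, under the limit, without background subtraction. Both genes met this limit in the other ways of processing. The second to the fifth gene in this order all had an NS (−) signal under 100, as did 26 of the 56 genes.

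Apart from ENSRNOG00000006579, 3 genes were higher with chaetocin by more than the technical SD. The first of these had signals of 144 in NS (−), 417 and 490 in HS (−), and 792 in HS (ch+), which gave ratios of 3.25 and 1.25. The next, the third gene by HS (−)/NS (−), is given above. The last had signals of 454 in NS (−), 1142 and 1364 in HS (−), and 2006 in HS (ch+), with ratios of 2.82 and 1.13. Without background subtraction none of these 3 genes was higher by more than the SD, with HS (ch+)/HS (−) ratios of 1.003, 0.960 and 0.908. With the background of each spot subtracted the ratios were 1.76, 2.83 and 1.93. The last gene was within the SD with loess on blank-subtracted signals (1.08) and with centering within blocks (1.07). The third gene by HS (−)/NS (−) was within it with the other HS (−) reading (1.06). The 7 genes with an HS (ch+)/HS (−) ratio over 1 reached a median of 3.20 times NS (−) with chaetocin, and the other 49 genes a median of 2.11. This level is a product that contains the ratio used for the split, so nothing follows from the difference.

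In the main values, the genes with the 5 brightest HS (−) spots among the 56 also had HS (ch+)/HS (−) ratios under 1. Those of the first and the second were within the technical SD of no difference. The brightest had signals of 2363 in NS (−), 5456 and 6367 in HS (−), and 7694 in HS (ch+), with ratios of 2.59 and 0.931, the second of which was 1.26 with the background of each spot subtracted, 1.10 with 50 added and 1.04 with normexp and loess. The second brightest was ENSRNOG00000006151, whose HS (ch+)/HS (−) ratio was 1.06 with 50 added. Its ratio was below 1 by more than the SD with normexp and loess (0.795) and with loess on blank-subtracted signals (0.880). The same held with the other HS (−) reading (0.855) and with centering within blocks (0.840). The third had 599 in NS (−), 2490 and 2735 in HS (−), and 2642 in HS (ch+), with ratios of 4.67 and 0.744. This gene was lower with chaetocin by more than the technical SD, though not with the background of each spot subtracted, where its ratio was 0.916. The fourth had 1152 in NS (−), 2447 and 2564 in HS (−), and 2450 in HS (ch+), with ratios of 2.39 and 0.736. The second of these fell under 0.71 with the background of each spot subtracted (0.611) and with normexp and loess (0.530). It was also under the limit with loess on blank-subtracted signals (0.706) and with the other HS (−) reading (0.697). This gene met the rule under 2 of the 6 other corrections of the background or normalizations. The fifth had 1074 in NS (−), 2128 and 2378 in HS (−), and 2508 in HS (ch+), with ratios of 2.23 and 0.813, the second of which was 1.04 with the background of each spot subtracted. Without background subtraction, the HS (ch+)/HS (−) ratios of the 5 genes, in this order, were 0.743, 0.720, 0.598, 0.592 and 0.653. All of these were below 1 by more than the SD, and those of the third to the fifth gene were under 0.71.

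At the lower end, ENSRNOG00000005387 had both the smallest rise and the lowest ratio with chaetocin. Its signals were 307 in NS (−), 551 and 640 in HS (−), and 593 in HS (ch+), and its ratios were 2.02 and 0.7144. The HS (ch+)/NS (−) ratio of 1.44 was the lowest of the 56. None of the 6 other corrections of the background or normalizations kept this gene within the rule, whereas it met both limits, with 2.12 and 0.750, when the HS (−) readings were exchanged. The gene next above it in the HS (ch+)/HS (−) ratio had signals of 149 in NS (−), 314 and 296 in HS (−), and 275 in HS (ch+). Its ratios of 2.37 and 0.7154 became 2.02 and 0.610 with the HS (−) readings exchanged, so that it no longer met the second limit.

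The spots of the 56 genes were spread over the chip. They lay in 31 of its 48 blocks, with at most 4 in 1 block. When the ratios were centered within each block instead of over the whole array, 52 of the 56 genes met the rule.

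The direction in HS (−) was the same under every way of processing that was run. All 56 genes had an HS (−)/NS (−) ratio over 1 and an HS (ch+)/NS (−) ratio over 1 in each of them, and the lowest HS (−)/NS (−) ratio was 1.08, with normexp and loess. As the rule chose the genes for high ratios of the same spots, this is largely fixed by the choice. Whether a gene passed the limits was less stable. Of the 56 genes, 9 met the rule under all 6 other corrections of the background or normalizations, 28 in at least 4, and 3 in at most 1. The 9 include ENSRNOG00000006151 and the gene with the brightest HS (−) spot. An HS (−)/NS (−) ratio over 2 was found in 24 of the 56 with normexp and loess and in 26 with 50 added to each signal. The position of the genes against no difference with chaetocin moved as well. An HS (ch+)/HS (−) ratio over 1 was found in 7 genes in the main values, in 27 with the background of each spot subtracted and in 2 without background subtraction. These settings also moved the tested genes as a whole, by 0.24 and -0.27 on the log2 scale. Relative to the median of the tested genes, the median of the 56 was 0.816 in the main values and stayed between 0.796 and 0.859 in the other settings. The genes were chosen for a high HS (−) reading, by which this ratio is divided. All settings used the same spots, so nothing follows about chaetocin from this narrow range.

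**Figure D4:**
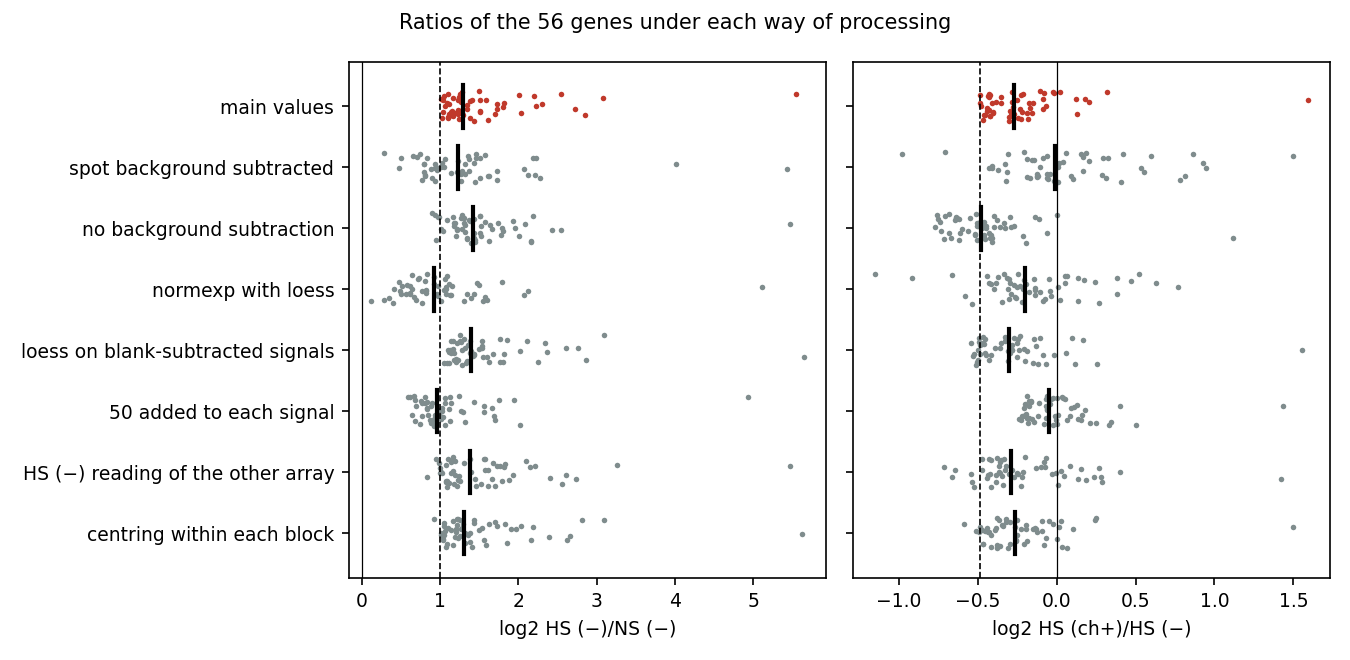
Each point is 1 of the 56 genes, with the log2 HS (−)/NS (−) ratio on the left and the log2 HS (ch+)/HS (−) ratio on the right, under the main values (red) and 7 other ways of processing (gray, 1 row each); black bars are medians, solid lines mark a ratio of 1 and dashed lines the limits. All points lie right of the solid line on the left, and the medians on the right lie at or below it, from 0.718 without background subtraction to 0.994 with the background of each spot subtracted.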

How the data were processed

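Gene expression was measured on 2 two-color arrays (Rat Oligo chip 20 K), each with 1 pool per channel. The authors deposited the median intensity of each spot at 635 nm and 532 nm and a background value, merged from scans at 3 gains, without normalization, and a table of log2 ratios whose steps are not given in the sources used here. The mean of the 4553 blank spots, trimmed by 5% at each end, was subtracted per channel (24.8 to 51.2). Spots not over this mean by 2 SD of the trimmed blank spots in both channels, or flagged by the scanner (1 spot), had no ratio. Log2 ratios were centered on the median of genes and quality control spots. These differed from the deposited log2 ratios by at most 2.7e-05 over 12674 genes on array 1 and 4.56e-06 over 13639 genes on array 2; 2 more genes on array 1 had a ratio here and none in the table.

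A test across replicates was not possible with 1 array per comparison, and the number of arrays limits the precision. Technical error was taken from the SD of the log2 difference between both HS (−) readings. The genes, limits and lists were chosen with earlier results of these data known. Genes described singly were the 5 at the top of the HS (−)/NS (−) ratio, the HS (−) signal and the HS (ch+)/HS (−) ratio, the 5 with the lowest HS (ch+)/HS (−) ratio, and those next to the limits; only those that show a pattern of their own are given, and without names 3 IDs are printed. The alternatives were other background corrections (of each spot, none, normexp with an offset of 50), loess, 50 added to each signal, the HS (−) reading of the other array, other limits and centering within blocks; the last was added with the data in view. The steps were tested on simulated arrays of 20174 genes. In these, 100 of 100 raised and kept genes were recovered and 0 of 100 raised and lowered ones were called. These counts check the steps only. Recovery was not measured separately for genes close to a limit, for dim genes or for genes with a small rise. Nothing therefore follows from these counts for any of the genes described here, of which 31 lay within 1 SD of at least 1 limit. The software was Python 3.11.15 (numpy 2.4.6, pandas 2.3.3, matplotlib 3.10.9) and limma 3.58.1 in R 4.3.3.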

Additional observations from a re-analysis of the deposited data

How the results depend on the processing

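No paired analysis was possible because each group had 1 pool on 1 array per comparison. The number of genes was 56 and stayed between 46 and 80 except in the following settings. It was 36 with normexp and loess, of which 20 were among the 56, 251 without a signal minimum, 34 with a minimum of 200, 30 with 100 in all 4 channels, 17 and 219 with HS (−)/NS (−) limits of 3 and 1.5, and 7 and 35 with HS (ch+)/HS (−) limits of 1 and 0.8. These limits change the count by construction. Of the 80 genes under subtraction of the spot background, 32 were among the 56, as were 25 of the 46 without background subtraction and 26 of the 54 with 50 added.

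For the 56 genes, the median HS (−)/NS (−) ratio of 2.45 became 1.90 with normexp and loess and 1.95 with 50 added to each signal. Their median HS (ch+)/HS (−) ratio, 0.829, was 0.994 with the spot background subtracted, 0.718 without background subtraction and 0.965 with 50 added. Their median HS (ch+)/NS (−) ratio, 2.17, was 1.88 without background subtraction, 1.69 with normexp and loess and 1.92 with 50 added. The cause was not tested.

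Among the genes described singly that were over 1 technical SD from no difference, the HS (ch+)/HS (−) ratio crossed 1 in 8 cases. Without background subtraction it was 0.960 for the third gene by HS (−)/NS (−) and 0.908 for the gene with 1.13. With the spot background subtracted it was 1.03 for the fourth and 1.34 for the fifth gene by HS (−)/NS (−), 1.07 for the gene with the second lowest HS (ch+)/HS (−) ratio and 1.04 for the fifth brightest; for the fifth gene by HS (−)/NS (−) it was 1.10 with normexp and loess and 1.004 with 50 added.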
